A study of Homo sapiens with 6 samples.

Results

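The genes described here are 10 transcription factor genes that cells switch on early after a signal: FOS, FOSB, FOSL1 and FOSL2 of the FOS family, JUN, JUNB and JUND of the JUN family, and EGR1, NR4A1 and MYC. They were picked by gene symbol out of the 17156 genes in the deposited gene table, and all 10 were found and had enough reads to be tested, as 12671 genes did. They were read in SiHa, an established line of human papillomavirus-positive squamous carcinoma of the cervix. Short hairpin RNA against VPS13C gave the 3 libraries labelled shVPS13C, which are compared with 3 libraries labelled shcontrol. Cells of both groups had been kept in cisplatin, which damages DNA through platinum crosslinks, at 20 µM for 48 h, so a response of these genes to the drug itself was not measured. The labels cover 1 cell line and state neither the number of hairpins nor that replicates came from different cultures; p-values therefore measure only the spread between these libraries.

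AP-1 is a pair of proteins, in most cases 1 from the FOS family and 1 from the JUN family, which grip DNA together through a basic leucine zipper. JUN proteins can also pair with each other, while FOS proteins need a JUN partner. The genes for FOS, FOSB, JUN, JUNB, EGR1 and NR4A1 are immediate early genes: kinase cascades reach factors already bound at their promoters, such as serum response factor and CREB, and their short-lived messages then appear without new protein synthesis. FOSL1 and FOSL2 follow more slowly and are themselves AP-1 targets, JUND is made more steadily, and MYC drives growth genes as a partner of MAX. In papillomavirus-positive cervical cells AP-1 also binds the control region of the viral genome.

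The promoters of FOS, FOSB and EGR1 are shown first, because the results set FOS and FOSB, whose levels ran alike across the libraries, beside EGR1, which was level. Each runs from 250 bases before to 50 bases after the gene start of the RefSeq annotation (build GRCh38.p14, plus strand), at chr14:75278578-75278877 for FOS, chr19:45467746-45468045 for FOSB and chr5:138465229-138465528 for EGR1. Capitals mark matches on either strand to the cAMP response element core TGACGT, the TATA box TATAAA or the CArG box, the site of serum response factor.
FOS: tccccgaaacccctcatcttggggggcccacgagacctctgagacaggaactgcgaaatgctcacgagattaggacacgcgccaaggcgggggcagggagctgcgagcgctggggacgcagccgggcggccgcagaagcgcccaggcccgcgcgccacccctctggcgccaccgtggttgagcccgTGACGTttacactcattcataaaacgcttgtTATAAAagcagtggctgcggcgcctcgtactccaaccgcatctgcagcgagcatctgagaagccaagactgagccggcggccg
FOSB: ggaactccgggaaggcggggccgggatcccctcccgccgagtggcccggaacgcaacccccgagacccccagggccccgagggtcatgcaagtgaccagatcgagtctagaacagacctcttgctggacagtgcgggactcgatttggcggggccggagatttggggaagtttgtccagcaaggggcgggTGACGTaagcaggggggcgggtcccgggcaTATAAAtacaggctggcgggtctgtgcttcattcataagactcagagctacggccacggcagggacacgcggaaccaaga
EGR1: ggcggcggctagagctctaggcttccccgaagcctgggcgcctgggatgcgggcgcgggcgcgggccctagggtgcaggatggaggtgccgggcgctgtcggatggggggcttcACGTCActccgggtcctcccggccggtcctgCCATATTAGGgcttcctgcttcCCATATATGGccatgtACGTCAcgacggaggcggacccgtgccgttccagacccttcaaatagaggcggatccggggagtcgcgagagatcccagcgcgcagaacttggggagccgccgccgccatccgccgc
The FOS promoter held the core TGACGT from base -64 to -59 and the TATA box from -33 to -28, counted from the gene start. In FOSB the same pair of motifs lay at -60 to -55 and at -30 to -25. Among all 35116 promoters of this length in the table, 7.98% held TGACGT, 11.5% held TATAAA and 0.795% held both. EGR1 held 2 CArG boxes, at -105 to -96 and -83 to -74, and 2 copies of the core on the other strand, at -136 to -131 and -67 to -62. A CArG box was in 1.29% of all promoters. The core was also in the promoters of FOSL2, at -66 to -61, and JUND, at -200 to -195, and on the other strand at -198 to -193 (overlapping the first) and at -87 to -82, and JUNB had the TATA box at -31 to -26. The NR4A1 windows searched, at chr12:52022582-52022881 and chr12:52037465-52037764, held none of these motifs. Whether the NR4A1 transcript with most counts starts in either window was not checked. The motif TGANTCA of AP-1 itself, present in 7.71% of promoters, was found in the FOSL2 promoter alone among the promoters of 8 of the 10 genes that the table holds, at bases 5 to 11 after the start. JUN had the AP-1-like site TGACATCA at -67 to -60, which 2.61% of promoters have. Bases beyond these windows were not searched, so a motif not found here may lie outside them. A match is only a run of letters, and binding was not measured. Whether motifs go with the levels below was not tested.

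Rapid decay of these messages is linked to AU-rich elements in the 3' untranslated region, built around the pentamer ATTTA and, in stronger form, the nonamer TTATTTATT. In GENCODE release 29 the pentamer was present in all 10 genes, with 5 copies in FOS, 4 in MYC, 3 each in FOSB, JUN and NR4A1, 9 in the long untranslated region of FOSL2, 2 in JUNB and 1 each in FOSL1, JUND and EGR1. It was present in 67.0% of the 12265 tested genes searched, with a median of 2 copies. The nonamer occurred in FOS and FOSL2 and in 8.21% of tested genes. It is printed with 10 bases on each side, with the nonamer in capitals, since it separates FOS and FOSL2 from the other 8 genes by sequence.
FOS: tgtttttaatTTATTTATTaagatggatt
FOSL2: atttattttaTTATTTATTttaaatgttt

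The 6 libraries held between 15643965 and 16333424 estimated counts, and shcontrol 3 lay apart on the second principal component, at 14.9, where the other 5 lay between -8.23 and 5.75. Results without it are given below. VPS13C was at 23.7, 25.1 and 27.5 CPM (counts scaled to library size) in shVPS13C libraries 1, 2 and 3, against 50.0, 54.9 and 49.6 CPM in shcontrol libraries (fold 0.494). Of 14 markers of squamous carcinoma cells 11 reached 1 FPKM (fragments scaled to library size and to a kilobase of transcript), with KRT7, KRT8, KRT17 and KRT18 high and KRT5, KRT6A and TP63 under 1. Among markers of other cells PTPRC was at 0, while CD14 and CD68 gave the leukocyte list a sum of 67.5 to 69.8 FPKM in shVPS13C and 61.0 to 63.3 FPKM in shcontrol. The fibroblast list summed to 3.65 to 4.23 FPKM in shVPS13C and 2.90 to 2.92 FPKM in shcontrol, with 1 of 6 markers, COL1A1, above 1 FPKM, and no endothelial marker of 4 reached 1 FPKM. The part of these sums in the results below was not tested.

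Of the 10 genes, 3 were higher in shVPS13C (FOS, FOSB and NR4A1), 1 was lower (FOSL1) and 6 did not pass an adjusted p of 0.05 in edgeR's quasi-likelihood test with Benjamini-Hochberg adjustment. Over all 12671 genes the same test called 4.50%, with 2.27% higher and 2.23% lower. The changes were small, from a fold of 0.854 in FOSL1 to 1.23 in FOSB. The median log2 fold change of the 10 genes was 0.03, against -0.001 over all genes. Groups of libraries did not overlap in 2 of the 10, FOSL1 and NR4A1, while over all genes 23.1% did not overlap. These genes are well covered, at 71.2 to 175 CPM on average, above 68.9% of tested genes.

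**Figure D1:**
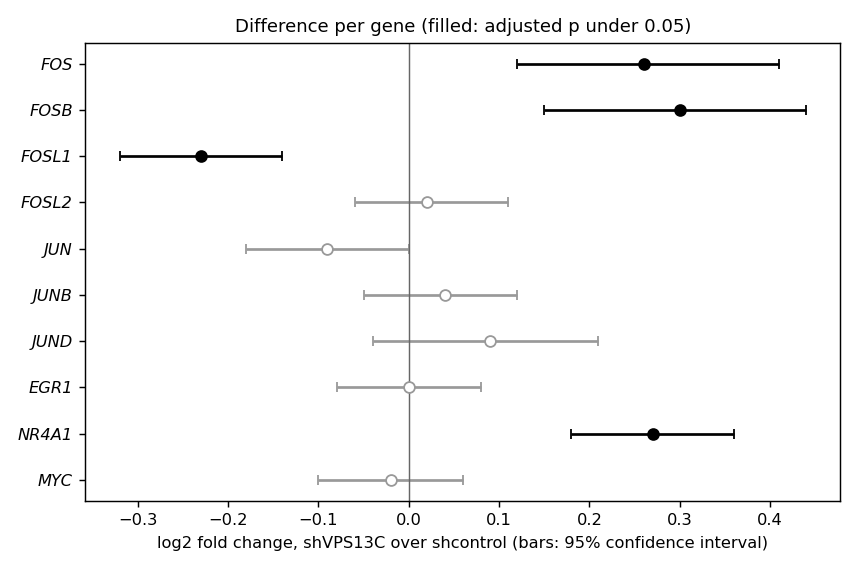
Log2 fold change of shVPS13C over shcontrol for each of the 10 genes, from the edgeR fit on 3 libraries a group, with bars for the 95% confidence interval and filled points for an adjusted p under 0.05. FOS, FOSB and NR4A1 lie to the right of 0 and FOSL1 to the left, and the other 6 stay within 0.09 of 0.

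FOSL1 encodes FRA1, a FOS family protein without the strong activation domain of FOS that is abundant in many carcinoma lines. Its gene lies on chromosome 11, 65892049 to 65900545 (Entrez 8061, GRCh38). It was at 134, 134 and 131 CPM in shVPS13C libraries 1, 2 and 3, against 154, 149 and 164 CPM in shcontrol libraries 1, 2 and 3. All shVPS13C libraries lay below all shcontrol libraries. The means were 133 ± 1.99 CPM in shVPS13C and 156 ± 7.92 CPM in shcontrol (SD, n = 3 each). On the log2 scale the difference was -0.23, with SE 0.043 and a 95% interval of -0.32 to -0.14 (edgeR adjusted p = 0.00267). By p it was gene 89 of 12671. A pseudogene copy, FOSL1P1, shares 2.91% of its 50-base stretches.

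NR4A1, also called NUR77, is an orphan nuclear receptor that binds DNA alone or with a retinoid X receptor. It lies on chromosome 12, 52022832 to 52059503 (Entrez 3164). Its level was 87.8, 88.6 and 83.4 CPM in shVPS13C libraries 1, 2 and 3, against 72.7, 70.0 and 72.6 CPM in shcontrol libraries 1, 2 and 3. The groups were well apart, and the libraries of each lay close together. NR4A1 averaged 86.6 ± 2.79 CPM in shVPS13C and 71.8 ± 1.58 CPM in shcontrol (SD, n = 3 each), a log2 fold change of 0.27 (SE 0.045, interval 0.18 to 0.36; edgeR adjusted p = 8.69e-04). Among all genes it was number 49 by p, the foremost of the 10. Of its 50-base stretches 16.3% occur in another gene, chiefly AC025259.3 on the opposite strand, and whether counting used strand is not given in the sources used here, so reads of that part cannot be assigned with certainty. The RefSeq transcript with most of its counts, NM_173157, was at 28.1, 29.5 and 30.5 FPKM in shVPS13C and 25.4, 22.2 and 25.7 FPKM in shcontrol libraries, also without overlap.

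FOS, the founding member of its family, lies on chromosome 14, 75278828 to 75282230 (Entrez 2353). Its level was 106, 95.3 and 89.9 CPM in shVPS13C libraries 1, 2 and 3, against 91.8, 81.3 and 69.4 CPM in shcontrol libraries 1, 2 and 3. The groups overlapped, because shcontrol 1 stood above shVPS13C 3. FOS averaged 97.1 ± 8.35 CPM in shVPS13C and 80.8 ± 11.2 CPM in shcontrol (SD, n = 3 each), a log2 fold change of 0.26 (SE 0.069, interval 0.12 to 0.41; edgeR adjusted p = 0.0265).

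FOSB, which as a full-length protein activates AP-1 sites and as a shortened form lacks its end, lies on chromosome 19, 45467996 to 45475179 (Entrez 2354). It was at 123, 119 and 107 CPM in shVPS13C libraries 1, 2 and 3, against 111, 88.0 and 84.8 CPM in shcontrol libraries 1, 2 and 3. Here too shcontrol 1 reached into the range of the shVPS13C libraries. FOSB averaged 116 ± 8.41 CPM in shVPS13C and 94.6 ± 14.3 CPM in shcontrol (SD, n = 3 each), a log2 fold change of 0.30 (SE 0.069, interval 0.15 to 0.44; edgeR adjusted p = 0.0146). FOS and FOSB put the libraries of each group in the same order, with library 1 highest and library 3 lowest. When each gene's log2 CPM was centred on its mean, FOSB was the gene 4th nearest to FOS among the 10699 genes averaging at least 5 CPM, and FOS was likewise the 4th nearest to FOSB, at a mean difference of 0.055 on the log2 scale.

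**Figure D2:**
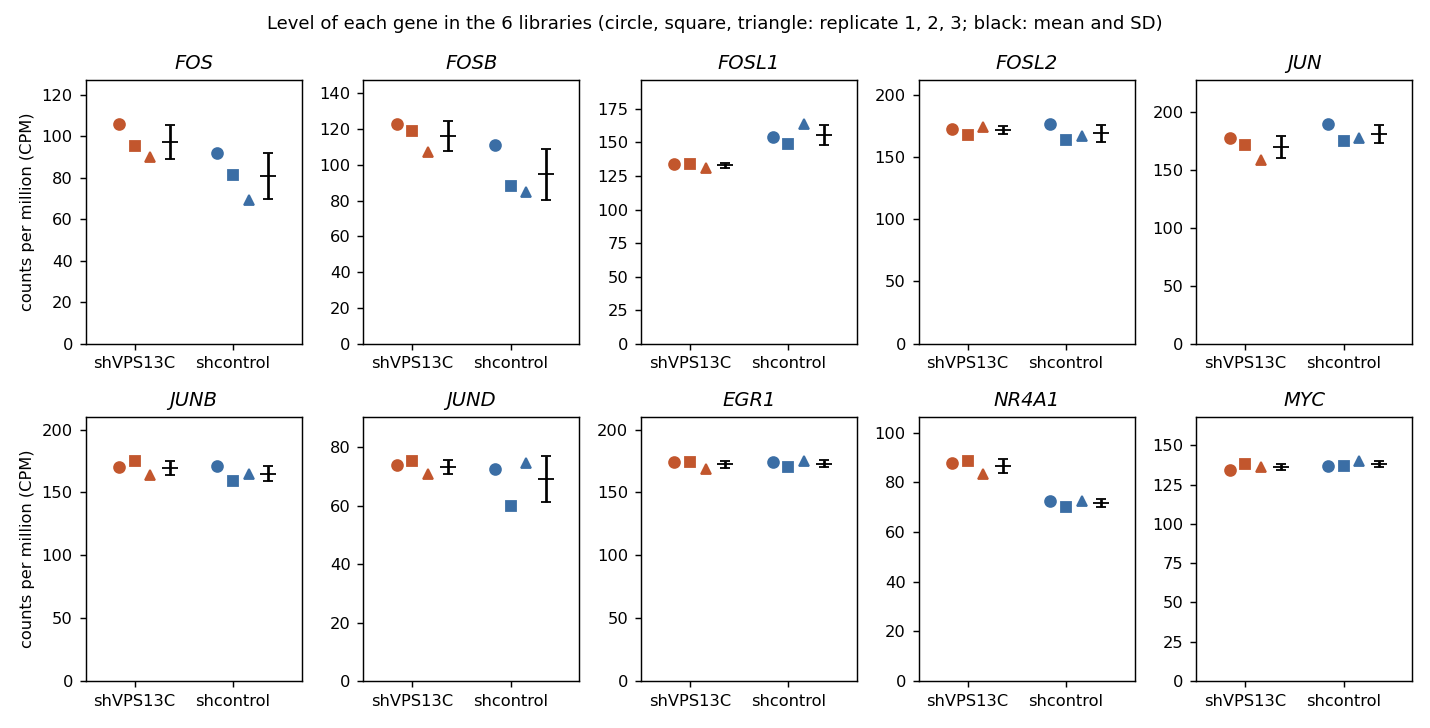
CPM of each of the 10 genes in shVPS13C libraries (left in each panel) and shcontrol libraries (right), with a marker shape per replicate and the mean and SD of each group in black; every axis starts at 0. FOSL1 and NR4A1 separate the groups, FOS and FOSB spread widely within each group, and EGR1 and MYC are level across all 6 libraries.

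The calls of FOSL1 and NR4A1 held when any 1 library was left out, and those of FOS and FOSB did not. FOSL1 stayed between -0.26 and -0.19 on the log2 scale with an edgeR adjusted p of at most 0.0244, and NR4A1 between 0.25 and 0.30 with at most 0.0114. For FOS, leaving out shVPS13C 1 gave an adjusted p of 0.216, shVPS13C 2 gave 0.0804, shcontrol 2 gave 0.0717 and shcontrol 3 gave 0.137 by edgeR. Its log2 fold change was 0.17 without shcontrol 3, which had the least FOS and FOSB of the 6 libraries, and 0.37 without shcontrol 1. For FOSB the same omissions gave 0.115, 0.0820, 0.0828 and 0.0699 by edgeR, and its log2 fold change was 0.22 without shcontrol 3 and 0.43 without shcontrol 1. Without shcontrol 3, FOSL1 was at -0.19 (edgeR adjusted p = 0.0144) and NR4A1 at 0.28 (edgeR adjusted p = 0.00173). So 2 of the 10 genes were called without shVPS13C 1, shVPS13C 2, shcontrol 2 or shcontrol 3, and 4 without shVPS13C 3 or shcontrol 1. The share of all tested genes called was 1.59%, 2.14% and 2.14% without shVPS13C 1, 2 and 3, and 3.62%, 2.97% and 3.52% without shcontrol 1, 2 and 3.

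**Figure D3:**
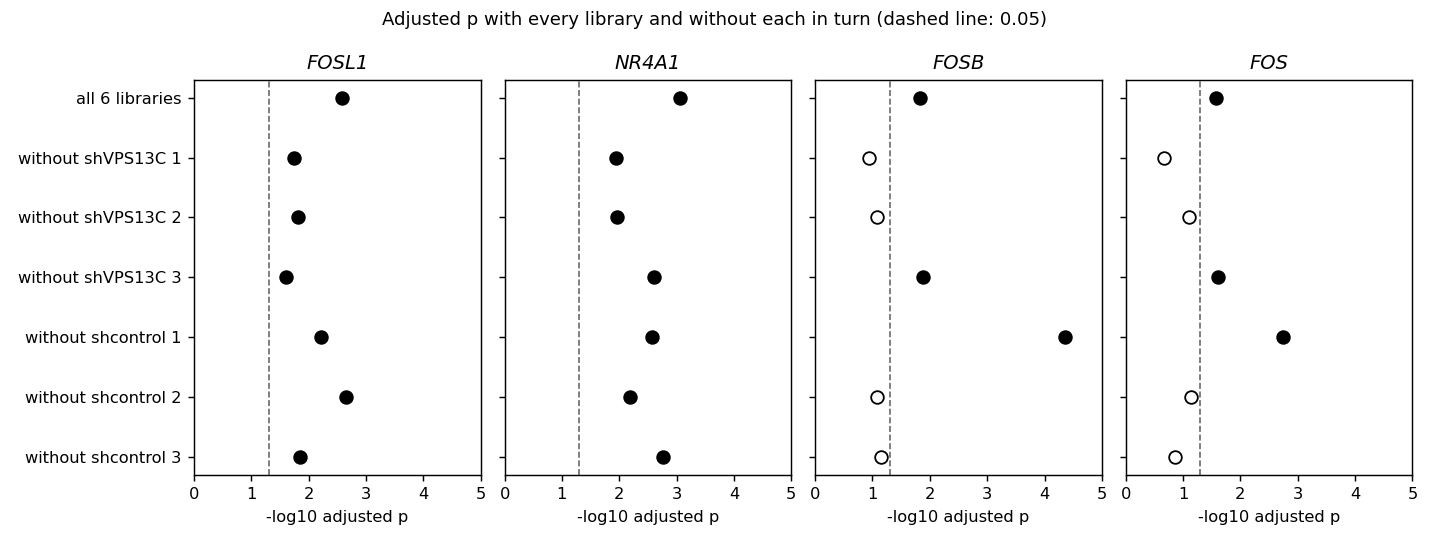
Minus log10 of the edgeR adjusted p of FOSL1, NR4A1, FOSB and FOS with all 6 libraries and without each in turn, with a dashed line at 0.05 and filled points past it. FOSL1 and NR4A1 stay to the right of the line in every row, and FOS and FOSB fall to its left in 4 rows each.

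Other tools divided the 4 genes in the same way. DESeq2 called FOSL1 and NR4A1 but not FOS (adjusted p = 0.363) or FOSB (0.298), where it called 2.70% of all genes. The robust form of the edgeR test, which lets variable genes keep a wider spread, gave 0.354 for FOS and 0.326 for FOSB and called 5.00% of all genes. With limma-trend on log2(FPKM + 1) the adjusted p was 0.177 for FOS and 0.133 for FOSB, and 1.31% of genes were called. The log2 fold changes hardly moved in these 3 fits, at 0.26 to 0.27 for FOS and 0.29 to 0.30 for FOSB. Within shcontrol the libraries varied by 13.9% for FOS and 15.1% for FOSB (SD over mean of CPM), against counting errors of 2.80% and 2.59%. FOSL1 varied by 5.08% and NR4A1 by 2.20% within shcontrol.

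FOSL2, which encodes FRA2, did not pass the test. It was at 173, 168 and 174 CPM in shVPS13C libraries and 177, 164 and 167 CPM in shcontrol libraries, which overlapped throughout. The log2 fold change of 0.02 had an interval of -0.06 to 0.11 (edgeR adjusted p = 0.832), so a difference beyond 0.11 lay outside it. The gene is on chromosome 2, 28392858 to 28417317.

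None of the 3 JUN family genes passed in edgeR, also at an unadjusted p, or in DESeq2, robust edgeR or limma-trend. JUN, the classical partner of FOS, was at 178, 172 and 159 CPM in shVPS13C libraries and 190, 175 and 178 CPM in shcontrol libraries. The lowest value belonged to shVPS13C 3 and the highest to shcontrol 1, with overlap between. Its log2 fold change was -0.09 (interval -0.18 to 0.0027; edgeR adjusted p = 0.281), the widest departure among the 6 genes that did not pass.

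JUNB, a weaker activator than JUN that can hold back its partner's targets, was at 170, 175 and 164 CPM in shVPS13C libraries and 171, 159 and 165 CPM in shcontrol libraries (log2 fold change 0.04, interval -0.05 to 0.12; edgeR adjusted p = 0.674). Of its exon bases 14.2% lie opposite exons of HOOK2. HOOK2 itself was at 28.4 CPM in shVPS13C and 30.2 CPM in shcontrol, and whether its reads enter the JUNB counts was not tested. JUND, the steadiest member in most cells, was at 74.0, 75.3 and 70.7 CPM in shVPS13C libraries and 72.5, 60.0 and 74.6 CPM in shcontrol libraries (log2 fold change 0.09, interval -0.04 to 0.21; edgeR adjusted p = 0.468). The lowest library was shcontrol 2, and without it the JUND log2 fold change was -0.0044. JUN lies on chromosome 1, 58780791 to 58784047, and JUNB and JUND lie on chromosome 19, 12791486 to 12793315 and 18279694 to 18281622.

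EGR1, a zinc finger factor that is among the fastest genes to respond to growth signals, was level. It was at 174, 174 and 169 CPM in shVPS13C libraries and 174, 170 and 175 CPM in shcontrol libraries. The libraries of a group varied by 1.65% in shVPS13C and 1.73% in shcontrol, where counting alone gives 1.90% and 1.91%. The log2 fold change was -0.0027 with an interval of -0.08 to 0.08 (edgeR adjusted p = 0.982), so differences beyond 0.08 in either direction lay outside it. The gene is on chromosome 5, 138465479 to 138469303.

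MYC was as even as EGR1, at 134, 138 and 136 CPM in shVPS13C libraries and 137, 137 and 140 CPM in shcontrol libraries. It averaged 136 ± 2.02 CPM in shVPS13C and 138 ± 1.85 CPM in shcontrol (SD, n = 3 each). The log2 fold change was -0.02 with an interval of -0.10 to 0.06 (edgeR adjusted p = 0.828). MYC lies on chromosome 8, 127735434 to 127742951.

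FOS and FOSB averaged higher and FOSL1 lower in shVPS13C, though the groups overlapped for FOS and FOSB and their calls were lost in other fits. The summed level of the FOS family averaged 210 ± 8.03 FPKM in shVPS13C and 210 ± 8.55 FPKM in shcontrol (SD, n = 3 each). By library, the 4 genes, compared per length, summed to 218, 210 and 202 FPKM in shVPS13C libraries and 220, 205 and 207 FPKM in shcontrol libraries. FOSL1 made up 44.6%, 46.3% and 47.1% of that sum in shVPS13C libraries, against 50.2%, 53.0% and 57.3% in shcontrol libraries. The FOSL1 share averaged 46.0 ± 1.29% in shVPS13C and 53.5 ± 3.58% in shcontrol (SD, n = 3 each), and the mean of shcontrol was 51.6% without shcontrol 3. FOS held 25.3 ± 1.29% in shVPS13C and 21.0 ± 2.34% in shcontrol, and FOSB 15.9 ± 0.630% in shVPS13C and 12.9 ± 1.38% in shcontrol. FOSL2 kept 12.8 ± 0.493% in shVPS13C and 12.6 ± 0.0468% in shcontrol. These shares are a description of message levels, without a test, and protein was not measured.

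In the JUN family JUNB was the largest part, at 51.9 ± 0.639% of the summed FPKM in shVPS13C and 50.9 ± 0.833% in shcontrol (SD, n = 3 each). JUN held 27.0 ± 0.784% in shVPS13C and 29.1 ± 0.743% in shcontrol, and JUND 21.1 ± 0.146% in shVPS13C and 20.0 ± 1.5% in shcontrol. The JUN share was lower in each shVPS13C library, at 27.9%, 26.8% and 26.4%, against 29.2%, 29.7% and 28.2% in shcontrol libraries. These shares were not tested, and JUN itself did not pass and its groups overlapped in CPM. Over all genes the groups did not overlap in CPM for 23.1%. The 3 genes together gave 211 ± 7.64 FPKM in shVPS13C and 209 ± 9.18 FPKM in shcontrol, close to the sum of the FOS family.

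**Figure D4:**
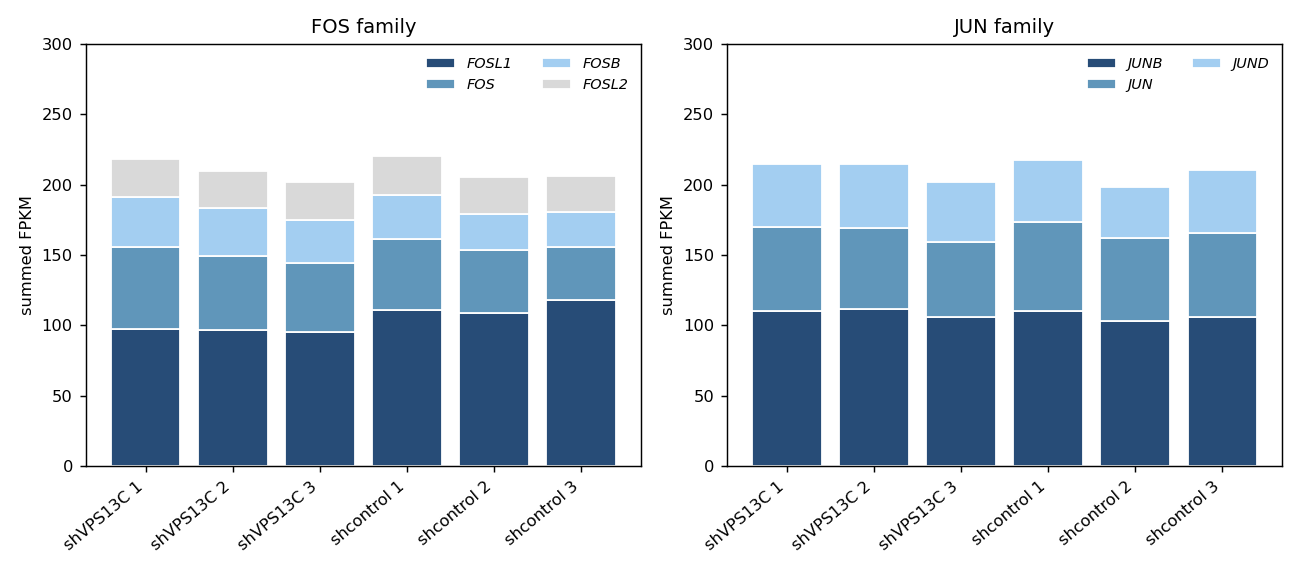
Summed FPKM of the FOS family (left) and the JUN family (right) in each library, shVPS13C first, stacked by gene. Bars reach similar heights, between 199 and 220 FPKM, while the FOSL1 part is smaller in shVPS13C libraries, at 95.2 to 97.3 FPKM, than in shcontrol libraries, at 109 to 118 FPKM.

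Ordered by mean FPKM over the 6 libraries, JUNB (108) and FOSL1 (104) led, and their ranges overlapped. They were followed by EGR1 (60.4), JUN (58.8), FOS (48.7), JUND (43.1), MYC (38.4), NR4A1 (34.7), FOSB (30.4) and FOSL2 (26.6). Only FOSL1, at 95.2 FPKM or more, and EGR1, at 61.0 or less, were neighbours whose ranges over the 6 libraries did not overlap. The ranges of all others overlapped with the next in the order, though JUN was above FOS within each library.

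Of the transcripts listed for these genes, FOS, JUN, JUNB and EGR1 have 1 each. For FOSL1 the transcript NM_005438 took 75.9 ± 2.15% of the gene's estimated counts in shVPS13C and 77.5 ± 1.41% in shcontrol (SD, n = 3 each), out of 5 transcripts. Of the FOSB counts NM_006732, the full-length form, took 75.8 ± 4.93% in shVPS13C and 73.6 ± 5.91% in shcontrol, and NM_001114171, the form for the shortened protein, 14.5 ± 4.87% in shVPS13C and 17.0 ± 7.81% in shcontrol. The spread between libraries was wider than either difference. MYC kept 82.0 ± 0.788% of its counts in NM_002467 in shVPS13C and 82.0 ± 0.519% in shcontrol. The 2 JUND transcripts were given exactly 50.0% each in every library, so the authors' estimate does not tell them apart. Reads of 50 bases from 1 end carry little information on isoforms, and no test was made.

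Of 34 other immediate early genes tested 1 rose and 4 fell, with a median log2 fold change of -0.02, where 4.50% of all tested genes were called. An unadjusted p under 0.05 was reached by 14 of the 34. Over all 12671 genes fewer than 2552 reached it, since JUN, at an unadjusted edgeR p of 0.0565, ranked 2552 by p. RHOB, a small GTPase gene, was at 80.7, 77.6 and 74.9 CPM in shVPS13C and 72.4, 62.4 and 62.1 CPM in shcontrol libraries (log2 0.24, edgeR adjusted p = 0.0109). KLF10, a repressor induced by TGF-beta, was at 104, 98.7 and 109 CPM in shVPS13C and 129, 117 and 123 CPM in shcontrol libraries (-0.25, edgeR adjusted p = 0.00261). BTG2, an antiproliferative gene under p53 (-0.27), PPP1R15A, whose product restarts translation after stress (-0.14), and CCN1, a matrix protein gene (-0.15), fell as well, and for each of these 5 genes the groups did not overlap. The closest relatives of EGR1 and NR4A1 did not pass: EGR3 stood at 3.70 ± 0.230 CPM in shVPS13C and 4.70 ± 0.674 in shcontrol, and NR4A2 at 8.53 ± 0.0669 CPM in shVPS13C and 7.52 ± 1.18 CPM in shcontrol (SD, n = 3 each). NR4A3 had a log2 fold change of -0.02 (edgeR adjusted p = 0.941). KLF10 and BTG2 kept their calls without any 1 library, while RHOB lost its call without shVPS13C 1 or shcontrol 2 (edgeR adjusted p up to 0.0936). PPP1R15A lost its call without shVPS13C 1 or 3 or shcontrol 1 or 2 (up to 0.143) and CCN1 without any library but shcontrol 2 (up to 0.211).

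Of 13 other partners of AP-1 tested 1 rose and 12 did not pass, with a median of 0.01, where 4.50% of all tested genes were called. ATF3, a stress factor that pairs with JUN, was at 65.9 ± 3.81 CPM in shVPS13C and 71.5 ± 3.22 CPM in shcontrol (SD, n = 3 each; edgeR adjusted p = 0.204). None of 6 genes of serum response factor and its cofactors passed in edgeR or DESeq2, nor did any of 10 regulators of JUN, FOS and MYC turnover or of 13 factors of AU-rich message decay. An unadjusted p under 0.05 was reached by 1, 2 and 4 genes of these lists, beside fewer than 2552 of all 12671 genes. Robust edgeR called 1 decay factor. Among 26 kinases upstream 24 did not pass, again beside 4.50% called over all genes. MAP2K1, the kinase of ERK, rose (log2 0.17, edgeR adjusted p = 0.0275) and RPS6KA3, the kinase RSK2 below ERK, fell (-0.18, edgeR adjusted p = 0.0216). Neither call held without each library in turn. MAP2K1 reached an edgeR adjusted p of 0.127 and RPS6KA3 of 0.0981 with 1 library less, and each lost its call without any of 4 of the 6 libraries.

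Of 26 genes listed as AP-1 targets 19 were tested, and 2 rose, 3 fell and 14 did not pass, with a median of -0.08, again beside 4.50% called over all genes. Of the 19, 8 had an unadjusted p under 0.05, beside fewer than 2552 of all 12671 genes. The collagenase gene MMP1 was at 19.1, 19.4 and 20.9 CPM in shVPS13C and 26.2, 27.2 and 24.1 CPM in shcontrol libraries (log2 -0.39, edgeR adjusted p = 0.00267). The stromelysin gene MMP3 was at 23.3, 22.0 and 23.3 CPM in shVPS13C and 31.4, 32.4 and 27.4 CPM in shcontrol libraries (-0.41, edgeR adjusted p = 0.00131). Higher were FSTL1, a secreted glycoprotein gene, at 398 ± 13.0 CPM in shVPS13C and 339 ± 4.15 CPM in shcontrol (0.23, edgeR adjusted p = 7.10e-04), and PLAUR, the urokinase receptor gene (0.21, edgeR adjusted p = 0.00512). MMP1, MMP3 and FSTL1 held without any 1 library, while without shVPS13C 1 the adjusted p of PLAUR was 0.0634 by edgeR. AREG and EREG, ligands of the EGF receptor on the same list, did not pass, at -0.05 and 0.03.

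Of the MYC and MAX network none of 11 tested genes passed in edgeR or DESeq2, and the median was -0.04. Of the 11, 3 had an unadjusted p under 0.05, beside fewer than 2552 of all 12671 genes. MAX was at 63.3 ± 1.09 CPM in shVPS13C and 65.4 ± 3.05 CPM in shcontrol (SD, n = 3 each). Among 29 MYC target genes 2 fell and 27 did not pass, with a median of -0.03, beside 4.50% called over all genes. The 2 that fell were PPAN, a gene of ribosome assembly (log2 -0.21, edgeR adjusted p = 0.0165), and LDHA, a glycolytic gene (-0.15, edgeR adjusted p = 0.0211). Reads of PPAN are uncertain, since a read-through gene, PPAN-P2RY11, shares its exons. PPAN lost its call without shVPS13C 1 or 3 or shcontrol 2 (edgeR adjusted p up to 0.0933) and LDHA without any library but shcontrol 2 (up to 0.113). NAB1 and NAB2, corepressors of EGR1, and RXRA and RXRB, partners of NR4A1, did not pass in edgeR or DESeq2, and none had an unadjusted p under 0.05.

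**Figure D5:**
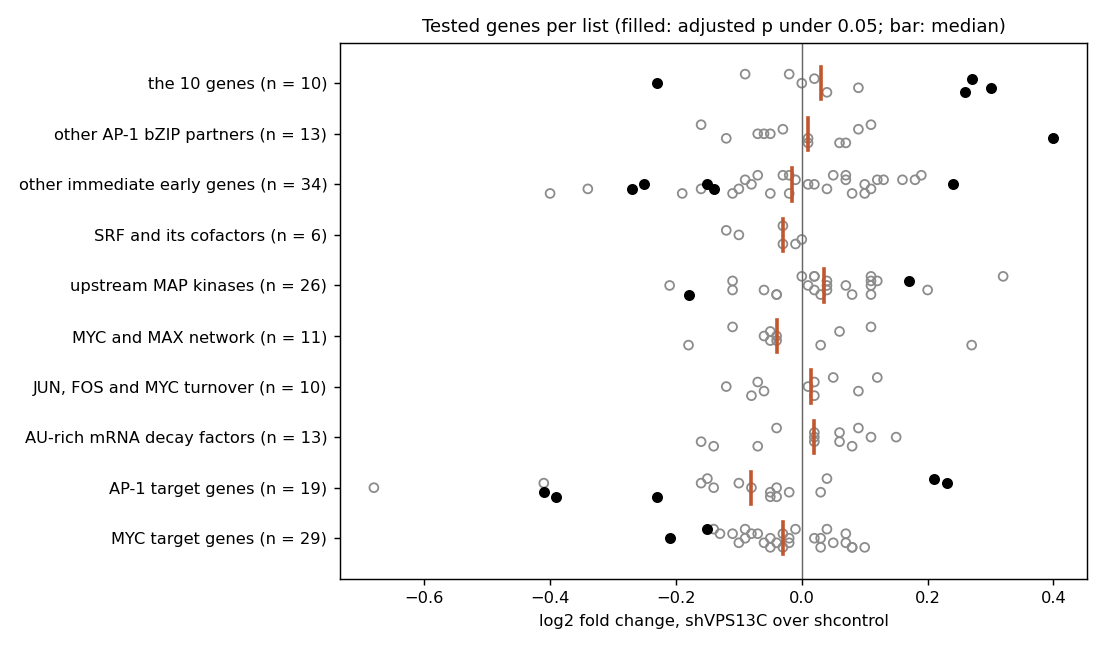
Log2 fold change of shVPS13C over shcontrol for each tested gene of the 10 genes and of the lists of at least 5 tested genes around them, 1 point a gene, filled for an adjusted p under 0.05, with an orange bar at the median. Medians lie between -0.08 and 0.04, and filled points number 4 among the 10 genes, 5 among 19 AP-1 targets, 5 among 34 other immediate early genes and at most 2 in each other list. Over all tested genes 4.50% were called.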

How the data were processed

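Libraries from RNA of SiHa cells were sequenced on a DNBSEQ instrument (50-base reads, 1 end), per the labels' protocols. The submitters' processing notes name hg38; not given in the sources used here were aligner, counter, annotation and strand setting. The deposited gene and transcript tables hold estimated counts, not all whole (14.7% to 15.6% of values per library were not), and FPKM, both made by the authors per the file headers. Another 24 per-sample columns and 16 columns of means were not used.

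Counts were rounded, filtered with edgeR 4.0.16 filterByExpr (12671 of 17156 genes kept), scaled by TMM and compared with the quasi-likelihood test (two-sided, no covariate, 4 residual degrees of freedom), adjusted by Benjamini-Hochberg over all genes. CPM are on TMM-scaled totals. Alternatives used DESeq2 1.42.0, limma 3.58.1 (genes with at least 1 FPKM in 3 libraries), other scaling, no filter, a replicate block and each library left out. The steps were run on simulated data as a check of the code, with spread taken from these libraries, so that check does not bear on single calls. Counting error is 1 over the square root of the count. Overlaps of transcripts and untranslated regions (the transcript with the longest coding sequence) come from GENCODE release 29, coordinates and promoters from RefSeq GRCh38.p14; the promoters of FOSL1 and MYC are not used here. The 10 genes, the lists around them and the tests were chosen with earlier results of these data known. Named genes are the 10, VPS13C, up to 5 called genes per direction from each list, and the 3 genes nearest in pattern to the 2 of the 10 with the widest range; HOOK2, uncalled list genes and markers were named after their values were seen. Some genes of the lists are not reported here by name.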

Additional observations from a re-analysis of the deposited data

How the results depend on the processing

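The count of 570 genes changed (288 higher, 282 lower) was 342 with DESeq2 (178 higher, 164 lower) and 150 with limma-trend on log2(FPKM + 1) or log2(FPKM + 0.1) (63 higher, 87 lower with each). Leaving out 1 library gave 204 to 463 genes, 101 to 238 higher and 103 to 225 lower. The count of 4 changed genes among the 10 was 2 with DESeq2, with robust edgeR and with limma-trend at either pseudocount, and 2 to 4 without 1 library. The cause was not tested. Direction turned without 1 library in 3 genes that did not pass: EGR1 ran from -0.016 to 0.011, FOSL2 from -0.0010 to 0.055 and JUND from -0.0044 to 0.14. FOSL1 and NR4A1 kept direction and call in all 14 alternatives. The 14 alternatives were run for 32 genes (the 10, VPS13C, called list genes and those nearest in pattern). Of these values 369 kept direction and call status, 74 lost the call and 5 turned direction. The 369 include values of genes that did not pass in the main test and had no call to lose, so they do not measure how stable the calls were. Over all tested genes replicate numbers did not pair the libraries, since deviations of same-numbered libraries correlated at 0.040, -0.0070 and -0.15. FOS and FOSB, though, fell from replicate 1 to replicate 3 in both groups. With the replicate block 483 genes were called and 4 of the 10, with an adjusted p of 0.00168 for FOS and 0.00101 for FOSB by edgeR; with no filter these were 1.04e-04 and 5.57e-06. Shares from counts over transcript length were not run, as the files give no lengths. The depth and spread of these libraries left a 95% interval of 0.08 on either side of 0 for EGR1, so smaller differences were not detectable.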

Other observations

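The genes nearest to FOS in their pattern over the 6 libraries, by mean absolute difference of centred log2 CPM among 10699 genes, were ADAM22 (0.048), ABHD2 (0.052) and FOXO1 (0.055). ADAM22, a membrane protein gene of the ADAM family, was at 20.3, 17.5 and 17.4 CPM in shVPS13C libraries and 17.0, 16.7 and 13.8 CPM in shcontrol libraries. ABHD2, a lipid hydrolase gene, was at 115, 110 and 111 CPM in shVPS13C libraries and 107, 97.0 and 85.0 CPM in shcontrol libraries, and was the one of these that passed the test (edgeR adjusted p = 0.0264, log2 0.22). Its call was lost without any library but shcontrol 1 (edgeR adjusted p up to 0.148; log2 0.13 without shcontrol 3) and with limma-trend. FOXO1, a forkhead factor gene, was at 10.2, 9.27 and 9.33 CPM in shVPS13C libraries and 8.43, 7.96 and 7.25 CPM in shcontrol libraries. All 3 were lowest in shcontrol 3, as FOS was.

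Nearest to FOSB were NRARP (0.030), MPP2 (0.042) and EPHX2 (0.051). NRARP, a feedback inhibitor gene of Notch signalling, was at 9.62, 9.97 and 8.83 CPM in shVPS13C libraries and 9.17, 7.46 and 7.25 CPM in shcontrol libraries. These 3 genes did not pass in edgeR, with log2 fold changes of 0.25, 0.27 and 0.34 (adjusted p = 0.216, 0.263 and 0.176). The likeness is a description over 6 libraries.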
